A study of Mus musculus with 4 samples.

Results

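The report follows 8 genes that place and release developing T cells in the thymus, Ccr7, Ccr9, Ccr4, Cxcr4, S1pr1, Klf2, Cd69 and Itgae, through the accessible regions of CD4+CD8+ double-positive (DP) thymocytes. The genes were taken from a named list, 8 of 21887 protein-coding genes with a RefSeq position (assembly GRCm38.p6), and a region was assigned to a gene when it overlapped the gene body or the 20 kb on either side. ATAC-seq, which uses a transposase to insert adapters into open DNA, was run on sorted DP thymocytes of C57BL/6 mice. The wild-type group (WT, CHAF1b floxp/floxp, no Cre) and the knockout group (KO, Cd4-cre;CHAF1b floxp/floxp) had 2 replicates each, and both carried the floxed Chaf1b alleles. Cd4-cre is driven by Cd4 regulatory sequence and acts from about the DP stage, so the cells compared are among the first to lose the gene. The WT mice carried no Cre, so that effects of Cre and of the deletion cannot be told apart. Chaf1b encodes a subunit of chromatin assembly factor 1, which places histones on newly replicated DNA. The replicates of each group had been pooled into 1 list of regions before deposit, so there is 1 value per group, no spread between replicates and no test between groups.

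A thymocyte is guided through the thymus by chemokine receptors that change as it matures. CXCR4 and CCR9 bind CXCL12 and CCL25 in the cortex, where DP cells reside, while CCR4 and CCR7 appear after positive selection and draw cells toward the medulla. S1PR1 senses sphingosine-1-phosphate and lets mature cells leave. KLF2 is the transcription factor that turns S1pr1 on, CD69 binds S1PR1 and removes it from the cell surface, and the integrin chain CD103, encoded by Itgae, holds T cells to E-cadherin on epithelium.

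Near these genes the WT list held 19 regions and the KO list 6, and all 6 KO regions had a WT counterpart, where 92.6% of KO regions did over the whole list. Of the 19 WT regions, 6 had a KO counterpart by at least 1 shared base (31.6%, exact Clopper-Pearson 95% interval 12.6 to 56.6). Over all WT regions within 20 kb of a protein-coding gene the share was 46.6%, and over the whole WT list 46.2%, both inside that interval. Ccr7, Ccr9, Cxcr4 and Cd69 had regions in both lists. Ccr4, Klf2 and Itgae had 2, 2 and 3 WT regions and no KO region, and S1pr1 had none in either. Of all protein-coding genes, 58.1% had a WT region and 39.9% a KO region in such a window, against 7 and 4 of the 8 genes here. Of the 6658 genes with at least 2 WT regions in the window, 20.8% had no KO region. In bulk cells, a lower signal from fewer accessible cells and from less access per cell cannot be told apart, and a missing region means only that none was called.

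**Figure D1:**
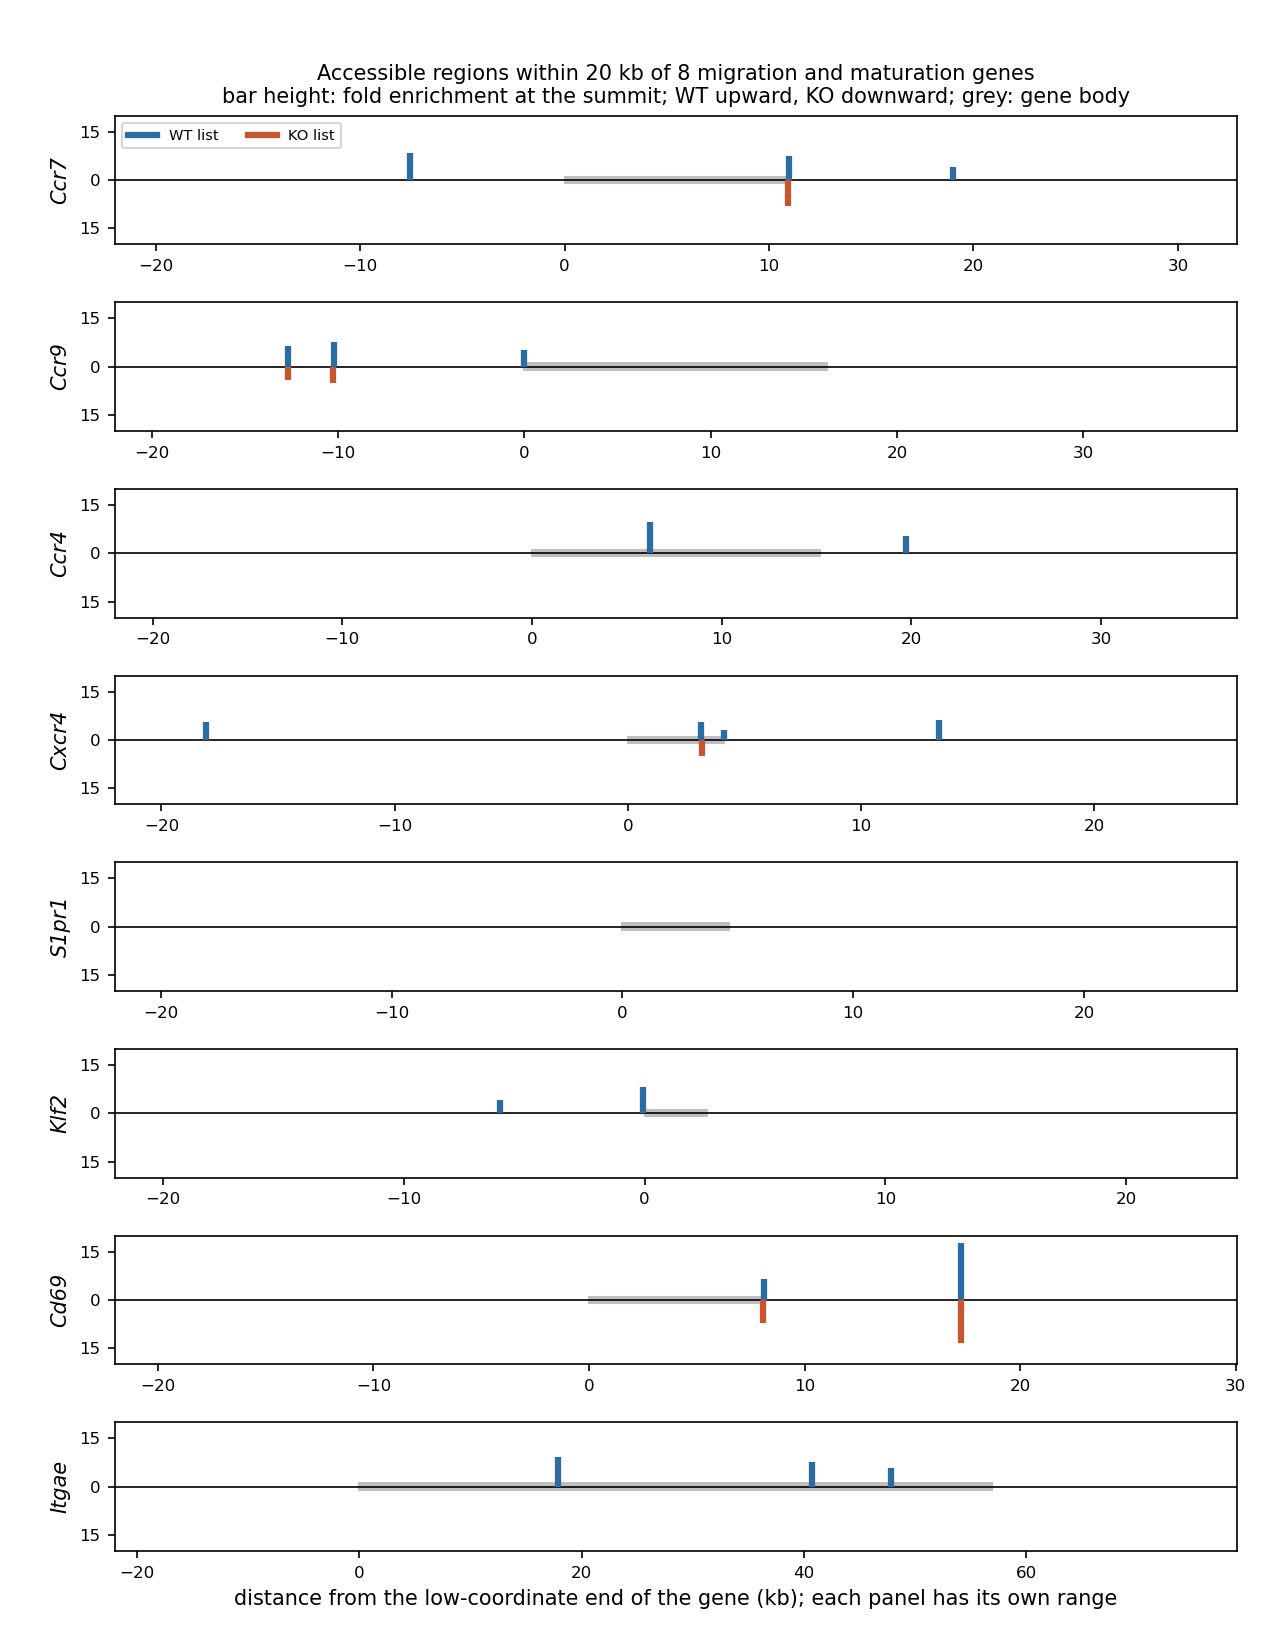
Regions near each of the 8 genes, one panel per gene, with the distance of the summit from the low-coordinate end of the gene (kb) on the x axis and the authors' fold enrichment as bar height, WT upward and KO downward; grey marks the gene body. Every KO bar sits opposite a WT bar, the tallest pair lies 9.20 kb beyond Cd69, and the panels of Ccr4, Klf2 and Itgae have WT bars only.

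At the gene ends, taken as 1000 bp on either side of the first and last annotated base, 5 of the 8 genes had a WT region (Ccr7, Ccr9, Cxcr4, Klf2, Cd69) and 3 a KO region (Ccr7, Cxcr4, Cd69), against 34.6% and 21.1% of all protein-coding genes. The kept share, 3 of 5 (60%, 14.7 to 94.7), was close to the 59.4% of all genes with a WT region there. Of the 6 WT regions at these ends 3 were kept, and of the 13 farther away 3 were kept. Of all genes without a WT region at an end, 0.894% had a KO region there, and 0 of the 3 here did.

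RefSeq promoter sequences were at hand for Cxcr4, Klf2, Ccr4 and Ccr9, 4 of the 8 genes, and are shown because a WT region lay over the promoter in all 4 and a KO region in 0. The window compared with the lists runs from 250 bases before the annotated start to 50 after it. Of 17492 protein-coding genes with such an entry, 33.6% had a WT region over it, and of these 59.6% had a KO region too. The 0 of 4 here has an upper 95% limit of 60.2%, which holds that share. It covers only the genes with an entry. Ccr7 and Cd69 had no entry, and both had a WT and a KO region at a gene end. Gene positions came without strand, so whether those ends are the starts was not determined. The 250 bases before the start are given 5' to 3' on the gene's own strand (GRCm38.p6), with matches to searched motifs in capitals.
Cxcr4, chr1:128592300-128592549, minus strand: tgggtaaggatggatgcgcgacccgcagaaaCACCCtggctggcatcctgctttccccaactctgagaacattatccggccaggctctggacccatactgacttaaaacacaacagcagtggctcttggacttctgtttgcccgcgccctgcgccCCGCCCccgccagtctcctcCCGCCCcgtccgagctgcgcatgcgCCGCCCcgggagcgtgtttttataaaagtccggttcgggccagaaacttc
Klf2, chr8:72318812-72319061, plus strand: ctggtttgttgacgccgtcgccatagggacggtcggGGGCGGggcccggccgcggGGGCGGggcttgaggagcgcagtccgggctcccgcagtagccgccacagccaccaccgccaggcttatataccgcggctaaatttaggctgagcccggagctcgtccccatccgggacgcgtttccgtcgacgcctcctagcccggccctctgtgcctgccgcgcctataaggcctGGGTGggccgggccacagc
Ccr4, chr9:114496545-114496794, minus strand: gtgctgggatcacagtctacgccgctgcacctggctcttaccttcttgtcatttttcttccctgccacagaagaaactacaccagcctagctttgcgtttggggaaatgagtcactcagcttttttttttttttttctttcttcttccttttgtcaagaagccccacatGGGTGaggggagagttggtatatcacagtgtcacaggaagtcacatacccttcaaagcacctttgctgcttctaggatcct
Ccr9, chr9:123766961-123767210, plus strand: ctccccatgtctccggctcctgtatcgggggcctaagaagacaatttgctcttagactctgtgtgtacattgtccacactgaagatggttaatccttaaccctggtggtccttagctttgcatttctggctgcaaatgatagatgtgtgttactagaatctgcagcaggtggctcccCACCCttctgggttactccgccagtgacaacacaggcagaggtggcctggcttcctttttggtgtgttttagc

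The capitals mark CACCC (the core bound by KLF factors) and GGGCGG (bound by SP factors), searched on both strands together with CAGCTG (E proteins), TGTGGT (RUNX) and CCGGAA (ETS). CACCC occurred once in each of the 4, and in 54.2% of 21263 promoter windows of protein-coding genes. GGGCGG occurred 3 times before Cxcr4, 2 times before Klf2 and not before Ccr4 or Ccr9, and in 42.6% of all windows. The E protein, RUNX and ETS letters were in 0 of the 4, and in 12.1%, 12.4% and 15% of all windows. A WT region lay over 6590 of the windows, as over these 4. Of the 6590, 56.7% held CACCC, 66.3% GGGCGG, 10.5% the E protein, 9.62% the RUNX and 28% the ETS letters. No matches overlapped in these 4 sequences. Klf2 and Cxcr4 had the higher G and C content, 71.2% and 61.2%, and Ccr9 and Ccr4 the lower, 50.4% and 46.4%, around a median of 55.6% over all windows. The WT region covered 250 of the 250 bases at Klf2, 173 at Ccr4, 108 at Ccr9 and 64 at Cxcr4. The WT summits lay 5 bp before the annotated start of Ccr9, 8 bp before that of Cxcr4, 13 bp before that of Ccr4 and 78 bp before that of Klf2.

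Among the cortical receptors, Ccr9 had 3 WT regions, of which 2 were kept. The promoter region (chr9:123767103-123767332) had a WT fold enrichment of 5.06. This value is the read pileup at the summit over its local background, as the authors deposited it. The summit held 17 reads (95% Poisson interval 9.90 to 27.2), a number solved from the deposited fold and p-value. No KO region was called within 10.07 kb of it.

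The other Ccr9 regions lay 12.7 kb and 10.2 kb on the promoter side of the gene, outside any gene end. At chr9:123754383-123754703 the fold enrichment was 6.33 in WT with 28 reads and 4.23 in KO with 10 reads. At chr9:123756750-123757151 it was 7.62 in WT with 33 reads and 5.11 in KO with 13 reads. In the WT list these regions stood at percentiles 47.1 and 66.8 of fold enrichment, and in the KO list at 2.45 and 12.8. The depth of the KO list was 0.752 times that of the WT list. The KO to WT ratios of reads were 0.357 (exact interval 0.155 to 0.757) and 0.394 (0.190 to 0.769), whose intervals reach just past the depth ratio. Among the 6875 one-to-one pairs of regions of the lists these ratios were at percentiles 1.08 and 2.90. Pairs with 25 to 29 WT reads had a median ratio of 0.60 (quartiles 0.517 to 0.704, 1166 pairs), and pairs with 30 to 39 WT reads 0.576 (0.486 to 0.676, 1335 pairs). Both Ccr9 sites were below the lower quartile of their like.

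The reads around these Ccr9 sites were fewer in KO as well. The local background is the mean pileup over 10 kb around a summit, or the background of the whole genome where that is higher. The genome value stood at 2636 WT and 736 KO summits of the lists, and at neither of these sites. At the first site the local background was 3.58 in WT and 1.60 in KO, which stands for 179 and 80 reads in 10 kb. At the second it was 3.46 and 1.74, or 173 and 87 reads. The ratios were 0.447 (0.339 to 0.585) and 0.503 (0.384 to 0.654), at percentiles 0.669 and 3.48 of the 6875 pairs, whose median was 0.692. Both intervals lay below the depth ratio, and counting error is all they cover. The pairs were not matched on WT background. Since the KO background cannot be below the genome value of 1.03, pairs with a low WT background could not reach such ratios. The percentiles are thus low in part by construction. The 10 kb windows overlap and include the called regions, so they are not separate measurements.

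**Figure D2:**
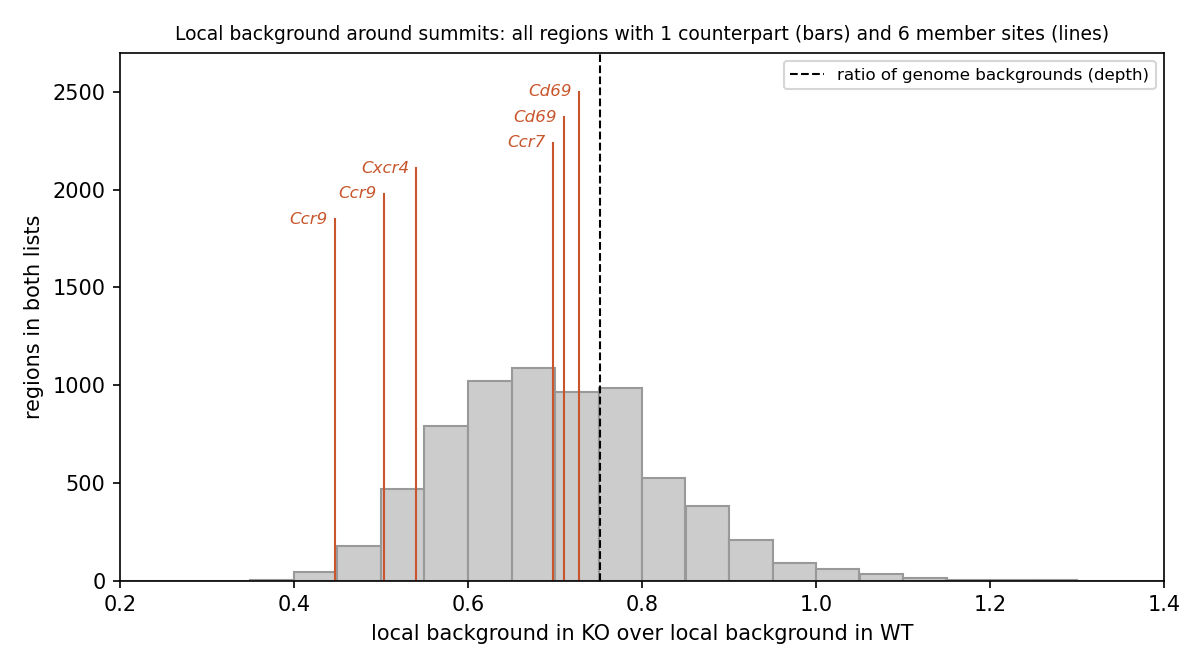
Ratio of local background, KO over WT (x axis), for the 6875 regions with 1 counterpart in each list (grey bars, number of regions on the y axis), with orange lines at the 6 shared sites near the 8 genes, whose height has no meaning, and a dashed line at the depth ratio. The Ccr9 lines (0.447 and 0.503) lie at the left edge of the bars, and Cxcr4 (0.540) follows. The lines of Ccr7 (0.697) and Cd69 (0.710 and 0.727) lie near the middle, and 1 region with a ratio over 2 is off the axis. A line's lowest possible ratio depends on its WT background, so the lines are not directly comparable. That background was 1.52 at Ccr7, 1.76 at the Cd69 end, 2.90 beyond Cd69, 3.22 at Cxcr4, and 3.58 and 3.46 at Ccr9.

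Cxcr4 had 4 WT regions and 1 KO region. The region over the start (chr1:128592110-128592363) was among the weakest of the WT list, with a fold enrichment of 3.11 (percentile 0.572) and 12 reads (6.20 to 21.0), and had no KO region. The kept region lay inside the gene, 952 bp from that end (chr1:128591215-128591494). Its fold enrichment was 5.45 in WT with 22 reads and 5.11 in KO with 13 reads. The ratio of reads was 0.591 (0.273 to 1.23), between the quartiles (0.55 to 0.75) of 1400 pairs with 20 to 24 WT reads. Cxcr4 thus counts as kept at a gene end through this inner region and not through its start. The local background there was 3.22 in WT and 1.74 in KO, a ratio of 0.540 (0.411 to 0.706) at percentile 8.25, below the depth ratio. This percentile, too, was not matched on WT background. The other WT regions, 18.1 kb on the low-coordinate side of the gene (fold 5.48, 12 reads) and 9.23 kb beyond its start (6.07, 20 reads), had no KO region.

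Of the receptors that follow positive selection, Ccr7 had a region at its high-coordinate end in both lists. At chr11:99154993-99155355 the WT fold enrichment was 7.54 with 18 reads, and the KO region at chr11:99155009-99155288 had 8.25 with 16 reads. The summits were 56 bp apart, against a median of 29 bp over all pairs. The ratio of reads was 0.889 (0.424 to 1.85), above the upper quartile (0.882) of 1263 pairs with 15 to 19 WT reads. The ratio of local background, 0.697 (0.482 to 1.00), was near the median of all pairs. The KO background, 1.06, was near the genome value of 1.03, so a much lower ratio could not be seen there. The regions 7.55 kb on the low-coordinate side (chr11:99136469-99136809, fold 8.47, 20 reads) and 8.13 kb on the other (fold 4.00, 11 reads) were in WT only. The first of these had the highest WT fold enrichment of the 3, and of 222 WT regions with reads within 1 and local background within 0.1 of its own, 50% (43.2 to 56.8) had a KO region.

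Ccr4 had no region at the outermost ends of its gene model, and its strongest region lay within. At chr9:114496430-114496717 the WT fold enrichment was 9.85 (percentile 86.0) with 25 reads (16.2 to 36.9). This region covers the RefSeq start of Ccr4 at 114496544, whose promoter is printed above, since the gene model extends farther on that side. No KO region lay within 52.8 kb. In the same decile of WT fold enrichment, 85.5% (83.7 to 87.3) of regions had a KO region and 220 of 1522 had none. Among 106 other WT regions with like reads and local background by the same margins, 73.6% (64.1 to 81.7) were kept. A second WT region, 4.55 kb beyond the high-coordinate end (fold 5.48, 12 reads), had no KO region, as was common at such values, where 12.4% (10.7 to 14.2) of 1405 like regions were kept.

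S1pr1, the receptor for egress, had no region within 20 kb in either list. The nearest was at the same place in both, 27.4 kb on the low-coordinate side. At chr3:115682612-115683079 the WT fold enrichment was 10.4 with 27 reads, and at chr3:115682682-115683056 the KO value was 6.36 with 13 reads. Of all protein-coding genes, 41.9% had no WT region in a window of this size.

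Klf2, the activator of S1pr1, had a region over its start in WT only. At chr8:72318797-72319329 the fold enrichment was 8.04 (percentile 71.6) with 22 reads (13.8 to 33.3), and the region was 533 bp wide, the widest of the 19. Of 258 WT regions with like reads and background, 68.2% (62.2 to 73.9) had a KO region. The weaker WT region 6.00 kb before the gene (fold 4.22, 9 reads) was also without one. The nearest KO region to the gene was 99.8 kb away.

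Cd69, whose protein removes S1PR1 from the surface, had all its regions in both lists. At the high-coordinate end (chr6:129275332-129275547) the fold enrichment was 6.52 in WT with 17 reads, and in KO (chr6:129275245-129275544) 7.02 with 15 reads. The ratio of reads was 0.882 (0.410 to 1.88), at the upper quartile of 1263 like pairs. The region 9.20 kb beyond that end (chr6:129284386-129284833) was the strongest near any of the 8 genes. Its WT fold enrichment was 17.7 (percentile 99.4) with 68 reads (52.8 to 86.2), and its KO value 13.4 (percentile 97.5) with 40 reads (28.6 to 54.5). The ratio of reads there was 0.588 (0.388 to 0.882), near the median of 0.629 of 175 pairs with 60 to 99 WT reads. The summits were 8 bp apart. The ratios of local background, 0.727 and 0.710, were close to the depth ratio. At the gene end the WT background was 1.76, which limits how low that ratio could be.

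Itgae, the adhesion gene, had 3 WT regions inside its body and no KO region within 29.5 kb of the gene. The strongest (chr11:73108243-73108556) lay 17.9 kb from the low-coordinate end, with a fold enrichment of 9.29 (percentile 82.3) and 25 reads (16.2 to 36.9). Of 139 WT regions with like reads and background, 75.5% (67.5 to 82.4) were kept. The next, 40.7 kb from that end, had 7.59 and 17 reads, where 31.3% (27.3 to 35.5) of 514 like regions were kept. The third (chr11:73138249-73138469, fold 5.90, 13 reads) covers the start of Haspin, a histone H3 kinase gene that lies within Itgae, so it cannot be assigned to Itgae. With it left to Haspin, Itgae still had 2 WT regions and no KO region.

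Of the 13 regions in WT only, 8 were in the lower 5 deciles of WT fold enrichment, where 13.8% to 34% of all WT regions were kept, and 5 in the upper 5 deciles. Their fold enrichments ran from 3.11 to 9.85 and their reads from 9 to 25. The median fold enrichment of the 13 was 5.90, against 7.03 for the 6 kept regions. If each of the 19 regions had been kept as often as all WT regions of its decile, 8.34 would have been kept, and 8.38 by the shares of like reads and background, where 6 were. Each of these sums counts regions of a gene as separate, and the sets of like regions held 1 to 1405 regions.

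**Figure D3:**
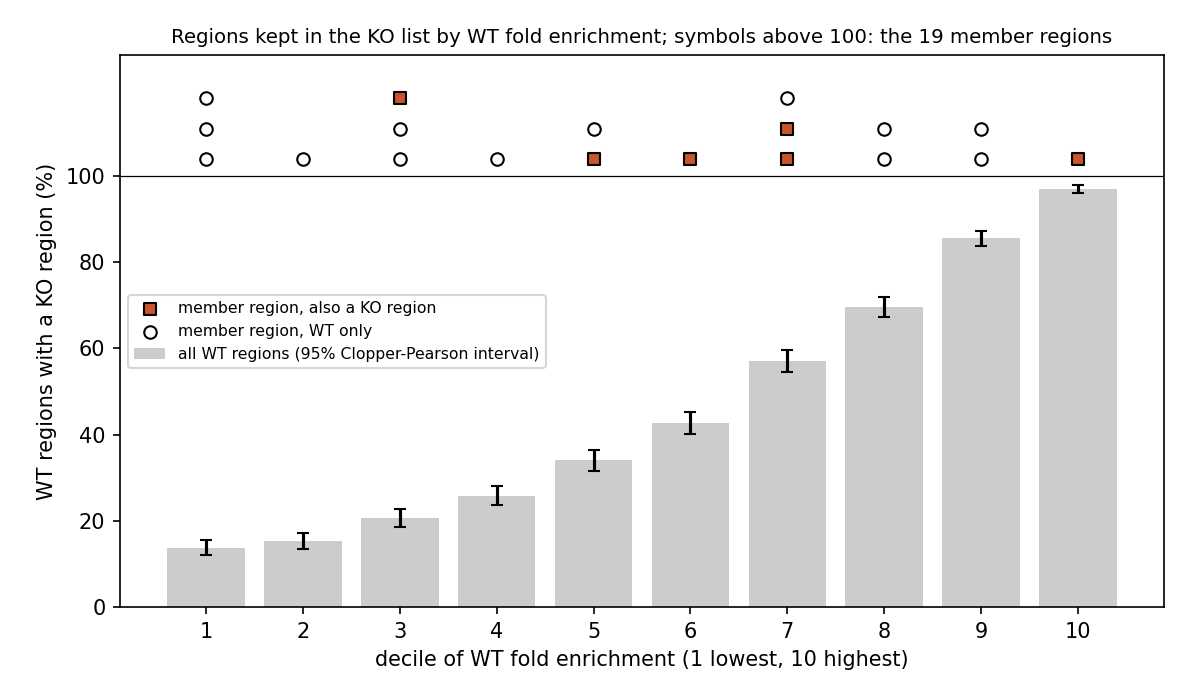
Share of WT regions with a KO region (y axis, percent, bars with exact 95% intervals) by decile of WT fold enrichment (x axis), with the 19 regions near the 8 genes as symbols above the line at 100, filled where a KO region overlapped. The bars rise from 13.8% to 97%, and the open symbols in decile 9 are the Ccr4 start and the inner Itgae region.

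Scaled by 0.752, the WT reads would give 18.8 reads (12.2 to 27.8) at the Ccr4 start and at the inner Itgae region, 16.5 (10.4 to 25.1) at the Klf2 start and 15 (9.19 to 23.2) at the region 7.55 kb from Ccr7. At the Ccr9 start the scaled value is 12.8 reads (7.45 to 20.5). These values were set beside the fewest reads of any called KO summit whose local background was within 0.1 of the depth-scaled WT value, 7 at the first 4 sites and 11 at the Ccr9 start. The lower bound of the scaled reads was above that number at 5 of the 13 sites, the first 4 and the second Itgae region, and not at the other 8. It was also not above it at 2 of the 6 sites that were called in KO, 1 near Ccr9 and 1 in Cxcr4. Nor does a bound above that number imply a call. Of WT regions like the second Itgae region 31.3% were kept, and of those like the Ccr7 region 50%. The bounds cover counting error of the WT reads only. Regions in both lists did not all follow 0.752. The median ratio of pairs was 0.765 with 15 to 19 WT reads, 0.65 with 20 to 24 and 0.60 with 25 to 29. The KO background at a site with no KO region is not known, and at the first Ccr9 site the scaled background was 2.69 where 1.60 was measured. The part of depth in the missing calls was not tested.

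**Figure D4:**
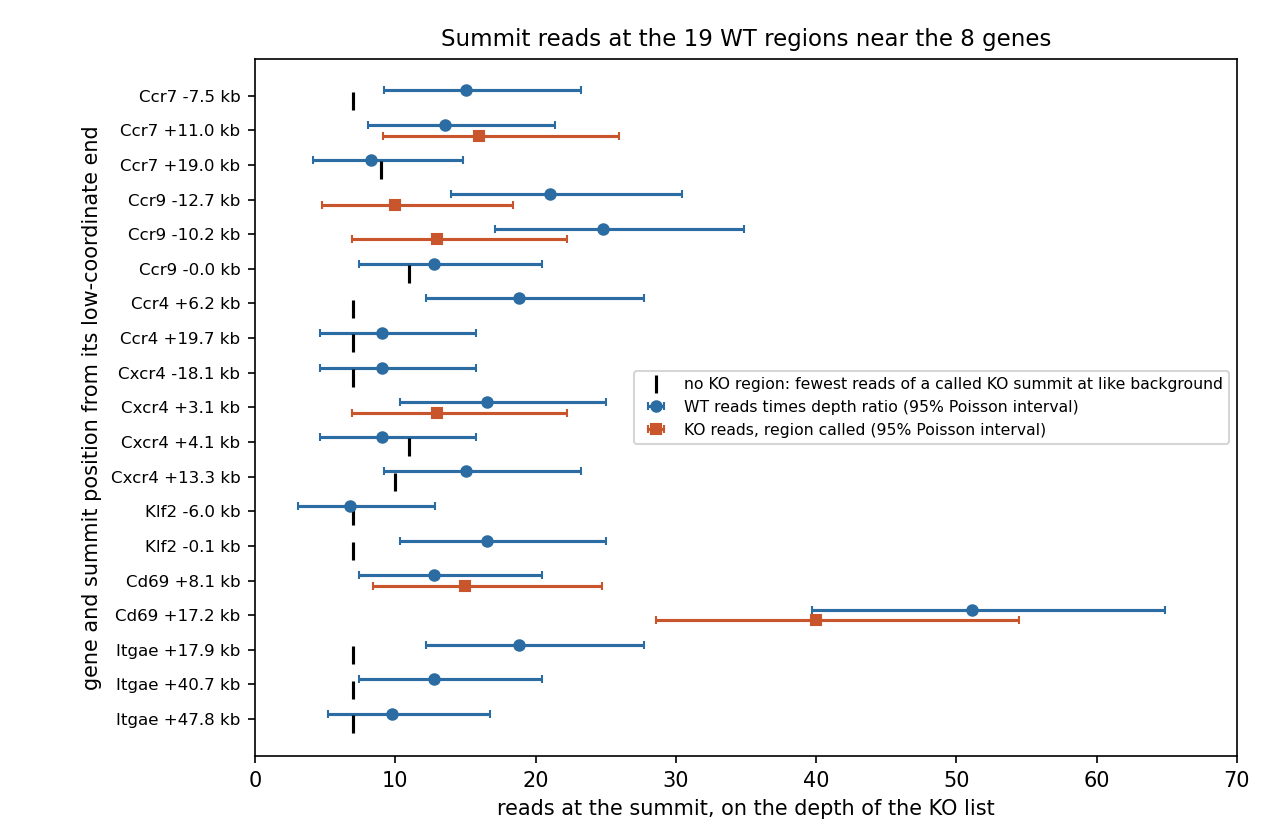
Reads at the summits of the 19 WT regions, scaled to the depth of the KO list (blue circles), with the KO reads where a KO region was called (orange squares) and otherwise the fewest reads of a called KO summit at like background (black ticks); bars are exact 95% Poisson intervals, and rows give the gene and the summit's distance from its low-coordinate end. At the Ccr4 row at 6.2 kb and the Itgae row at 17.9 kb the blue interval, 12.2 to 27.8, lies wholly to the right of the tick at 7.

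At the 6 shared sites together the lists held 186 WT and 107 KO reads, a ratio of 0.575 (0.449 to 0.734). The same ratio over all 6875 pairs, which were not matched on WT reads, was 0.677, inside that interval. The region 9.20 kb beyond Cd69 gave 68 of the 186 WT reads. Of all pairs, 68.7% were below the depth ratio, against 4 of the 6 sites here. The Ccr7 and Cd69 ends, with ratios of 0.889 and 0.882, were the 2 above it. At 0 of the 6 did the interval of a single site lie wholly below the depth ratio.

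Other genes of migration and maturation were read in 4 lists of 95 genes in all. At their ends 45 had a WT region and 26 of these a KO region (57.8%, 42.2 to 72.3), close to the 59.4% of all protein-coding genes. Their median WT fold enrichment of 6.99 was near that of all such genes, 7.24. Of 21 further receptors, 4 had a WT region and 2 were kept. Ptger4, a prostaglandin E2 receptor gene, had the values 8.12 in WT and 9.11 in KO, and Xcr1, a chemokine receptor gene, 8.19 and 8.05. The Xcr1 region covers the start of the neighbouring gene Fyco1, so it cannot be assigned to Xcr1 alone. Gpr183 (5.26), an oxysterol receptor gene, was among those in WT only.

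Of 16 adhesion genes, 8 had a WT region and 5 were kept (62.5%, 24.5 to 91.5). Cd2 (WT 11.5, KO 7.95), Cd99l2 (11.4, 7.87) and the integrin genes Itga4 (7.88, 6.82), Itgb2 (7.65, 7.69) and Itgb1 (7.32, 7.02) were in both lists. Icam2 (5.93), which encodes an integrin ligand, and Itgal (5.74), which encodes an integrin chain, were among those in WT only. Selplg, which encodes the P-selectin ligand, was in KO only, with a fold enrichment of 5.00 and 16 reads.

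Of 28 genes of migration signalling, 19 had a WT region and 8 were kept (42.1%, 20.3 to 66.5). Rgs2 (13.6 in WT, 12.3 in KO), a regulator of G protein signalling, Mob1a (10.0, 6.31), Rhoa (9.45, 6.13), Rap1b (7.59, 5.86) and the G protein gene Gnai3 (7.58, 7.69) were in both. Fermt3 (7.38), which encodes the integrin activator kindlin-3, Cdc42 (6.97), Arrb2 (5.95), Tln1 (5.83) and Gnai2 (5.43) were in WT only.

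Of 30 maturation genes, 14 had a WT region and 11 were kept (78.6%, 49.2 to 95.3), an interval that holds the share of all genes. Those with the highest WT values were Tox (9.21 in WT, 5.90 in KO), Klf6 (8.74, 7.30), Relb (7.59, 7.31), Klf13 (7.41, 5.67) and B2m (7.38, 7.75). Runx3 (5.70), Klf3 (5.48) and Traf6 (4.97) were in WT only, and the E protein inhibitor gene Id3 (4.93) in KO only. The lists differ in how many members were kept, and no test of that difference was made.

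Of 16 marker genes of DP thymocytes, 9 had a WT region at an end and 1 of these, Cd8b1 (5.43 in WT, 5.28 in KO), had a KO region. The kept share of 11.1% (0.281 to 48.2) was below the 59.4% of all protein-coding genes, which lies outside its interval. These shares were not matched on WT fold enrichment. The median WT fold enrichment of the 9 was 6.57, against 7.24 for all such genes. In the decile of WT regions that holds 6.57, 42.7% had a KO region, which lies inside the interval. That is a share of regions and not of genes, in a single decile, while the 9 WT values ran from 4.64 to 8.10. Those in WT only were Cd3g (8.10), Themis (7.45), Rag2 (7.19), Bcl11b (6.69), Rag1 (6.57), Satb1 (5.56), Cd3d (4.78) and Ptcra (4.64). The markers were chosen with earlier results of these data known, and their part in the values of the 8 genes was not tested. The defining genes Cd4 and Cd8a had none at their ends in either list. Of 6 B cell markers 1 had a WT region, Ebf1, and of 7 myeloid and 7 stromal and epithelial markers 0 had one in either list. Accessibility at a gene end is not expression, so the labelled cell type was checked only in this sense.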

How the data were processed

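ATAC-seq had been run on 4 samples, and per the labels the replicates of a group were pooled into its deposited list. The submitters' processing notes name Bowtie2, MACS2 2.1.4, deepTools 3.4.1, GATK, Picard, FastQC, Trim Galore and the build mm10. Settings, such as any shift for the transposase cut, are not given in the sources used here. Regions came with the -log10 of their p- and q-values, a fold enrichment and a score, all deposited by the authors; the lowest -log10 q was 1.32 in WT and 1.31 in KO. The score and the summit lists were not used. The fold enrichments are the authors' and only describe and rank regions.

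Whole reads and local background at each summit were solved from fold and p with the MACS2 formulas (Poisson tail). The most frequent background, 1.37 in WT and 1.03 in KO, served as relative depth; library totals were not used here. Lists held 15215 WT and 7645 KO regions, with medians of 18 and 15 summit reads. Overlap was at least 1 bp. RefSeq gene positions of GRCm38.p6, the assembly behind mm10, had no strand or exons, so introns and exons were not told apart. Intervals are exact (Poisson or Clopper-Pearson, 95%) and cover counting error only. Named genes were the 8 members and, in each related list, those in KO only and the 5 highest WT fold enrichments in both lists and in WT only. Some list members that this rule takes are left unnamed. Members and lists were chosen with earlier results of these data known; the matching on reads and background, the promoter windows, and the background ratios were added after the data were seen. Solver and overlap were tested on simulated data. Software was scipy 1.17.1, pandas 2.3.3, numpy 2.4.6 and matplotlib 3.10.9 under Python 3.11.15.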

Additional observations from a re-analysis of the deposited data

How the results depend on the processing

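No paired analysis was possible because the replicates of each group were pooled into 1 list before deposit, and for the same reason no replicate could be left out. With a -log10 q of at least 10, the 8 genes had 2 WT and 1 KO region-bearing gene ends, with 1 kept, in place of 5, 3 and 3. In the 20 kb windows 9 WT and 2 KO regions were left, with 2 kept, in place of 19, 6 and 6, and of the related genes 11 were kept in place of 26. With a -log10 q of at least 5, the windows held 3 KO regions and 3 kept WT regions. With a flank of 50 kb they held 29 WT and 11 KO regions, with 11 kept. The other 19 values recomputed were within 1.5 times those reported. A gene end window of 500 bp left 2 of 5 genes kept, without Cxcr4. At the 6 member sites with up to 13 WT reads, 0% to 14.8% of like WT regions were kept, and the part of depth in this was not tested. The lowest background was also the most frequent in each list, so the depth ratio from either was the same by construction and is no check. The value recomputed with it is among the 19.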
